A study of Mus musculus with 12 samples.

Results

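Matrix metalloproteinases (MMPs), ADAMs, ADAMTS proteases and the tissue inhibitors of metalloproteinases (TIMPs) were described in bulk messenger RNA from the dorsal meninges of young and aged male mice after head injury. Members were rows of the count table whose name is Mmp, Adam or Adamts with its number or suffix, or Timp1 to Timp4. This gave 84 of the 55385 rows, namely 22 MMP, 34 ADAM, 19 ADAMTS, 5 ADAMTS-like and 4 TIMP genes. The count filter kept 55 members for testing (15, 15, 16, 5 and 4 of these families, in that order), and 29 were set aside. The study asked how age and a mild traumatic brain injury (TBI) shape the meningeal transcriptome 1.5 months later. The 12 libraries sequenced formed 4 groups of 3. Aged TBI mice were C57BL/6 males, 20 to 24 months old by the labels, that received a single mild closed-skull impact over the right inferior temporal lobe, and Aged Sham mice were of the same age and received anaesthesia and positioning with no impact. Young TBI and Young Sham mice were males of the same strain (C57BL/6J), 10 weeks old by the labels, given the same procedures. The aged mice came from an ageing colony and the young from a commercial breeder, so age and source cannot be told apart. A library pooled the meninges of 2 mice by the methods and of 2 to 3 by the legends, after saline perfusion, and the meninges were scraped off the skullcap without the impact site. P-values here measure the spread between such pooled libraries.

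The 3 protease families are zinc enzymes made as inactive precursors and controlled at the level of transcription, activation and inhibition. MMPs cut collagens, gelatins, elastin and many other proteins of the extracellular matrix, either secreted or tethered to the cell surface. ADAMs are membrane proteins, and the active ones release the outer part of other membrane proteins, whereas several members lack a working protease site and act in adhesion or as receptors. ADAMTS enzymes are secreted, and they trim procollagens or cut large proteoglycans, whereas ADAMTS-like proteins have no protease domain. TIMPs bind the active site of MMPs and of some ADAM and ADAMTS enzymes. The dura mater is a collagen-rich membrane lying against bone, with fibroblasts, vessels and resident macrophages, all of which are known to make such enzymes.

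Several MMP genes lie side by side on mouse chromosome 9, and their start sites are shown here because Mmp13, Mmp3 and Mmp12 are among the genes whose values are described in detail. RefSeq promoter windows (250 bases before to 50 after a gene's start, GRCm38.p6) were matched by symbol for 52 of the 84 members, with 57 windows in all. The 3 windows are from Mmp13 (chr9:7272264-7272563, plus strand), Mmp3 (chr9:7445572-7445871, plus strand) and Mmp12 (chr9:7347124-7347423, plus strand). Capitals mark TGAGTCA or TGACTCA, which are reverse complements of each other and the core of the binding site of AP-1, the Fos and Jun dimer, searched on both strands.
Mmp13: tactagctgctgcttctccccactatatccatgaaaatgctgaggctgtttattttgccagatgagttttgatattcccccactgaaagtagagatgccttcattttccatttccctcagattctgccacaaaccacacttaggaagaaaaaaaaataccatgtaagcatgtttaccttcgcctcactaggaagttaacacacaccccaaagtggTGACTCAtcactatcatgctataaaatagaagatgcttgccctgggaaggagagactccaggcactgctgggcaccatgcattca
Mmp3: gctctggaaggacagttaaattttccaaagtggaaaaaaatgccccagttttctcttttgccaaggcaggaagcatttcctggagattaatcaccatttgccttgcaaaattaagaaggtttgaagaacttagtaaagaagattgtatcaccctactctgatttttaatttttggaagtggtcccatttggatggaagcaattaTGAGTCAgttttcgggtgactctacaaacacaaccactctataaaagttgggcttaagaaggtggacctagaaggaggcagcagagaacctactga
Mmp12: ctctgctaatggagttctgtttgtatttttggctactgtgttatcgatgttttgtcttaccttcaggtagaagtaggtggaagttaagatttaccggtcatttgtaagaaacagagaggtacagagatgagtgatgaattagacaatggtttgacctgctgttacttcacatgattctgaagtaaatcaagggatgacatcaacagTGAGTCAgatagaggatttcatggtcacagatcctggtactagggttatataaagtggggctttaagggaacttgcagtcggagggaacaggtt
The match began 35 bases before the start of Mmp13, 46 before that of Mmp3 and 44 before that of Mmp12. It was found in 7 of the 11 windows of the 9 cluster genes looked up (63.6%), in 3 of the 46 windows of the other members (6.52%) and in 5.20% of 32851 windows of all genes. Such a match is a description of the sequence, not a measured binding site.

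Values within a gene are CPM, counts scaled to a common library size. Total counts ranged from 8092374 to 16087717 per library, and members took 0.489% to 0.643% of them in 11 libraries and 0.823% in Aged Sham 3. That library stood apart for these genes: 13 of the 55 members were more than 1.5 times the next library of the group there (3.88% of all genes were so), against at most 1 member in any other library. With it, all 7 tested osteoclast markers were highest of the 12 libraries (summed level 830 CPM, against 101 to 177 in the others). The osteoblast and bone list summed to 3801 CPM there (504 to 842 in the others), of which Spp1 held 2556 CPM and Ibsp 973 CPM. Of the 10 genes of that list, 3 were highest of the 12 libraries there. Results that rest on Aged Sham 3 are given with and without it. No marker of fibroblasts, arachnoid and dural border cells, endothelium or mural cells was at 0 in any library. The same held for the markers of brain cells, choroid plexus and skeletal muscle, so this does not tell the labelled tissue from others. Brain cell markers summed to 643 to 893 CPM. Skeletal muscle markers were high in Aged TBI 2 (1646 CPM) and Young TBI 3 (419 CPM) and at most 50.5 CPM elsewhere, and their part in the results was not tested.

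Levels between genes are compared per length, as TPM (counts divided by exon length and scaled to a fixed sum per library). Timp2 was the most abundant member, at 877 ± 35.3 TPM in Aged TBI, 885 ± 155 in Aged Sham, 1033 ± 48.1 in Young TBI and 1025 ± 81.9 in Young Sham (SD, n = 3 each; errors of levels are SD and those of log2 fold changes standard errors). Mmp2 (gelatinase A) followed, with 571 ± 86.7, 648 ± 239.6, 881 ± 73.6 and 885 ± 50.3 TPM in the same order of groups. The next by median over the 12 libraries were Mmp13 (collagenase 3, 270.0 TPM), Mmp14 (233 TPM), Adamts2 (228 TPM), Timp1 (209 TPM), Timp3 (196 TPM), Adamts10 (159 TPM) and Mmp9 (gelatinase B, 130 TPM), and neighbours in this order overlapped in their library ranges. Of the 55 tested members 13 had a median of at least 100 TPM and 21 one under 10 TPM. Among ADAMs the most abundant were Adam9, Adam15 and Adam10, with medians of 113, 107 and 102 TPM.

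**Figure D1:**
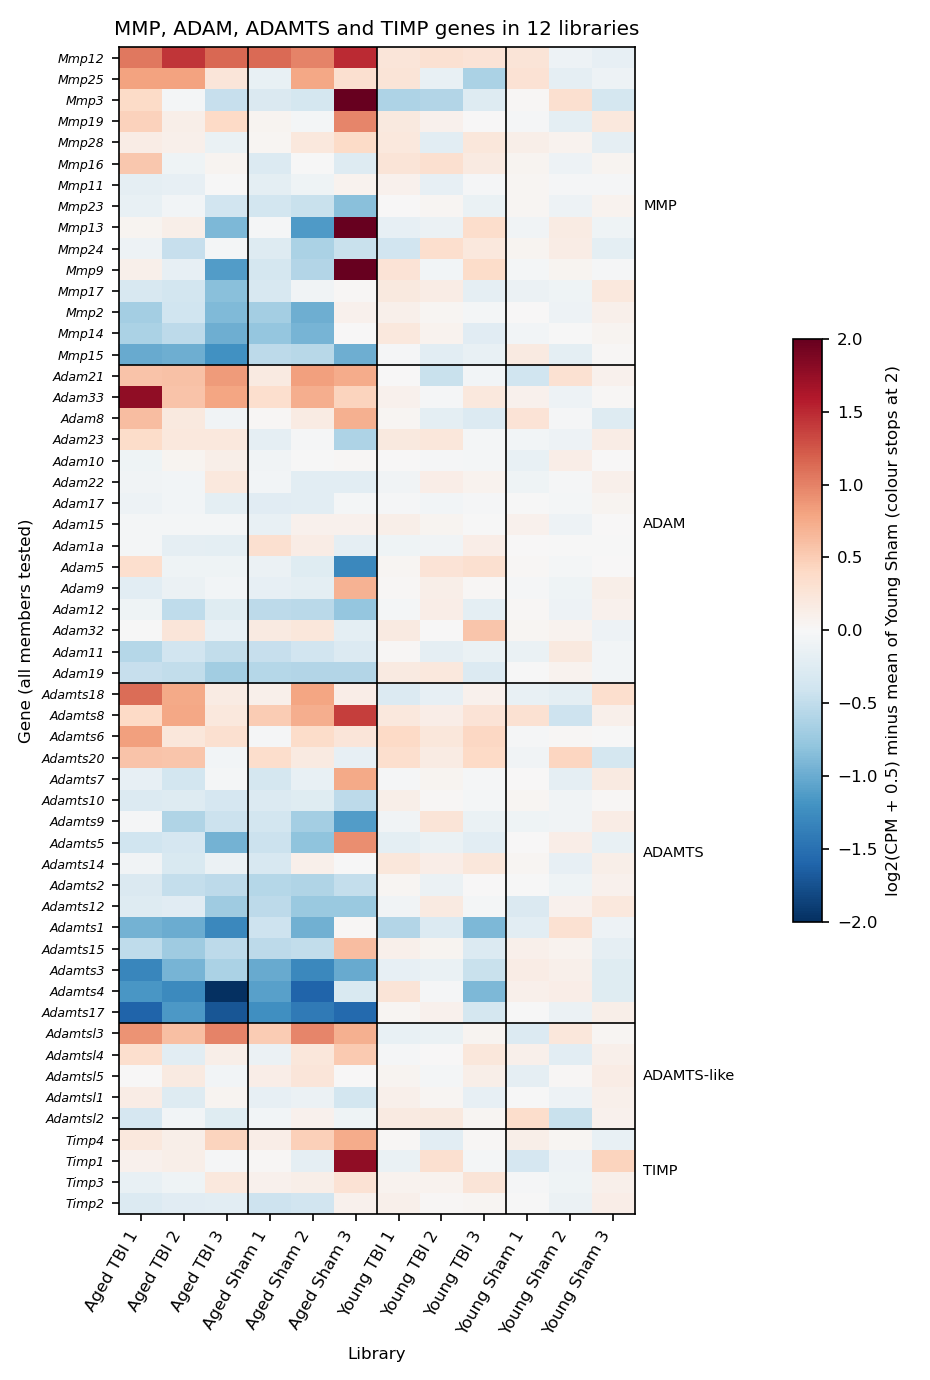
Rows are the 55 tested members by family and columns the 12 libraries. Colour is log2(CPM + 0.5) minus the mean of the 3 Young Sham libraries, red above and blue below. Adamts17, Adamts3 and Mmp15 are blue and Mmp12 and Adamtsl3 red in all 6 aged libraries, whereas Mmp13, Mmp9, Mmp3 and Timp1 are dark red in Aged Sham 3 alone.

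More members differed with age than after injury. Genes were counted as called below an adjusted p of 0.1, the cut-off the study itself used. Between Aged Sham and Young Sham 15 of the 55 members were called (27.3%, against 15.6% of all 18238 genes), with 4 higher (7.89% of all genes) and 11 lower (7.71% of all genes). Between Aged TBI and Young TBI 18 were called (32.7%, against 20.2% of all genes), with 6 higher (9.92% of all genes) and 12 lower (10.3% of all genes). The median log2 fold change of the members was -0.04 in sham and -0.16 in injured mice, beside 0.01 and 0.02 over all genes. With library totals in place of TMM factors the members called were 4 higher and 11 lower in sham and 7 higher and 11 lower in injured mice, while over all genes 1943 were higher and 987 lower in sham mice (1439 and 1406 with TMM) and 3195 and 1257 in injured mice (1809 and 1874 with TMM). By family, ADAMTS genes had 1 higher and 6 lower of 16 in each comparison. MMP genes had 1 higher and 2 lower of 15 in sham mice, and 2 higher and 4 lower in injured mice. ADAM genes had 0 higher and 3 lower of 15 in sham mice, and 2 higher and 2 lower in injured mice. The summed level of all 19 ADAMTS genes was 1074 to 1242 CPM in Aged TBI and 1091 to 1275 CPM in Aged Sham, against 1469 to 1586 CPM in Young TBI and 1581 to 1631 CPM in Young Sham. Of the 1275 CPM, which were those of Aged Sham 3, Adamts2 held 499.6 CPM and Adamts10 291 CPM. In bulk tissue, fewer cells of a type and less RNA per cell cannot be told apart.

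The comparisons of sham and of injured mice share no library, and 9 members were called in both, each in the same direction. In sham mice 21 of the 55 were at an unadjusted p under 0.05 (25.1% of all genes), and 21 had groups that did not overlap, 5 higher and 16 lower (28.4% of all genes). In injured mice 27 had groups that did not overlap, 6 higher and 21 lower (35.1% of all genes). The 9 were 60% of the 15 and 50% of the 18, and over all genes the 1618 called in both were 56.9% and 43.9% of those called in each. All 9 kept their calls when any 1 of the 12 libraries was left out.

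Of these 9, Adamts17 (chr7:66839735-67153171, positions are gene spans in GRCm38) had the largest change in both comparisons. Its protein is a secreted protease linked to fibrillin microfibrils, and in humans its loss causes a form of Weill-Marchesani syndrome. It measured 10.5, 14.5 and 9.74 CPM in Aged TBI 1 to 3, 13.8, 11.97 and 10.9 CPM in Aged Sham 1 to 3, against 33.9, 34.7 and 25.5 CPM in Young TBI 1 to 3 and 32.7, 30.3 and 35.8 CPM in Young Sham 1 to 3. All 6 aged libraries were below all 6 young ones, and the log2 fold change was -1.44 ± 0.16 in injured mice (adjusted p = 0.000636) and -1.43 ± 0.16 in sham mice (adjusted p = 0.000721). Adamts10 (chr17:33524204-33553782), whose product also acts on fibrillin microfibrils, was more abundant and changed less. It measured 344, 350.1 and 329.6 CPM in Aged TBI 1 to 3, 343, 351 and 291 CPM in Aged Sham 1 to 3, against 454, 424 and 408 CPM in Young TBI 1 to 3 and 429, 397 and 426 CPM in Young Sham 1 to 3. The aged libraries again all lay below the young ones, with log2 fold changes of -0.33 ± 0.07 (adjusted p = 0.013) and -0.35 ± 0.07 (adjusted p = 0.0132) in injured and in sham mice.

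The procollagen N-propeptidases, which remove the amino-terminal propeptide of fibrillar procollagens so that they can assemble, were lower with age too. Adamts2 (chr11:50602084-50807573) measured 568, 497 and 481 CPM in Aged TBI 1 to 3, 465, 458 and 499.6 CPM in Aged Sham 1 to 3, against 709, 636 and 700.02 CPM in Young TBI 1 to 3 and 693, 656 and 733 CPM in Young Sham 1 to 3. The aged and young libraries did not overlap, and the log2 fold change was -0.40 ± 0.07 in injured mice (adjusted p = 0.00535) and -0.55 ± 0.07 in sham mice (adjusted p = 0.00155). Adamts3 (chr5:89677087-89883334), which also takes part in the activation of VEGF-C, measured 5.79, 7.67 and 9.43 CPM in Aged TBI 1 to 3, 7.19, 5.85 and 7.22 CPM in Aged Sham 1 to 3, against 13.3, 13.6 and 10.8 CPM in Young TBI 1 to 3 and 16.6, 16.2 and 12.5 CPM in Young Sham 1 to 3. All aged libraries were below all young ones, and the log2 fold change was -0.73 ± 0.18 (adjusted p = 0.0215) in injured and -1.16 ± 0.18 (adjusted p = 0.00339) in sham mice. The last of the 3 enzymes, Adamts14, measured 12.2, 10.3 and 11.9 CPM in Aged TBI 1 to 3, 10.2, 13.8 and 12.7 CPM in Aged Sham 1 to 3, against 15.1, 14.2 and 15.2 CPM in Young TBI 1 to 3 and 13.3, 11.4 and 14.1 CPM in Young Sham 1 to 3. It was called lower in injured mice only (-0.37 ± 0.13, adjusted p = 0.0756), and the gene fell out of the calls with library totals only (-0.29, adjusted p = 0.128), with no count filter (adjusted p = 0.133), with the replicate number as a block (adjusted p = 0.101) and without Aged TBI 2, Aged TBI 3, Young TBI 1, Young TBI 2 or Young TBI 3 (log2 fold changes from -0.41 to -0.31, adjusted p from 0.109 to 0.18). In sham mice its groups overlapped (-0.07 ± 0.13, adjusted p = 0.781), and the age effects of the 2 comparisons were not shown to differ (adjusted p of the interaction = 0.714).

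Fibrillar collagen genes, which encode the substrates of these enzymes, were lower as well. Col1a1, which encodes a chain of type I collagen, measured 3113, 2992 and 2369.6 CPM in Aged TBI 1 to 3 and 2690.1, 2919 and 2710.2 CPM in Aged Sham 1 to 3, against 7108, 5957 and 6036 CPM in Young TBI 1 to 3 and 6260.3, 5393 and 7234 CPM in Young Sham 1 to 3. Its aged libraries were all below its young ones (-1.17 ± 0.12, adjusted p = 0.000511 in injured mice, and -1.18 ± 0.12, adjusted p = 0.000531 in sham mice). Col1a2 (-0.77 ± 0.10 and -0.87 ± 0.10, adjusted p = 0.00132 and 0.000948) and Col3a1 (-1.25 ± 0.18 and -1.12 ± 0.18, adjusted p = 0.00203 and 0.00432) were also lower in injured and in sham mice. Pcolce, an enhancer of the carboxy-terminal procollagen cut, was lower in both comparisons as well (-0.48 ± 0.10, adjusted p = 0.00861, and -0.57 ± 0.10, adjusted p = 0.00523). The 12 fibroblast markers, collagen genes among them, summed to 10470 to 12363 CPM in Aged TBI and 10251 to 11418 CPM in Aged Sham, against 19948 to 22607 CPM in Young TBI and 17768 to 22808 CPM in Young Sham. In each comparison 7 of the 12 were called lower and 2 higher, and Pdgfra, which marks fibroblasts and encodes no matrix protein, was not called (0.12 ± 0.16, adjusted p = 0.67 in injured mice, and 0.20 ± 0.16, adjusted p = 0.483 in sham mice). The part of fibroblast content in the changes of the ADAMTS genes was not tested.

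Mmp15 and 2 ADAM genes complete the members that were lower with age in both comparisons. Mmp15 (chr8:95352268-95375080) encodes a transmembrane MMP that can activate Mmp2 at the cell surface. It measured 38.6, 39.5 and 33.5 CPM in Aged TBI 1 to 3, 54.4, 53.1 and 39.3 CPM in Aged Sham 1 to 3, against 77.2, 67.3 and 70.6 CPM in Young TBI 1 to 3 and 88.4, 67.8 and 79.4 CPM in Young Sham 1 to 3. All aged libraries were below all young ones, with log2 fold changes of -0.94 ± 0.13 in injured mice (adjusted p = 0.00144) and -0.68 ± 0.13 in sham mice (adjusted p = 0.00782). Adam19 (chr11:46055992-46147343), a membrane protease known to process neuregulin, measured 33.9, 33.01 and 28.8 CPM in Aged TBI 1 to 3, 31.2, 31.1 and 30.8 CPM in Aged Sham 1 to 3, against 53.2, 54.03 and 38.5 CPM in Young TBI 1 to 3 and 46.2, 49.2 and 44.9 CPM in Young Sham 1 to 3. Its aged libraries lay within a narrow range below every young one (-0.61 ± 0.11, adjusted p = 0.00535 in injured mice, and -0.59 ± 0.11, adjusted p = 0.00803 in sham mice). Adam11 (chr11:102761439-102780262), a neuronal member without a working protease site, measured 28.1, 31.8 and 29.7 CPM in Aged TBI 1 to 3, 30.3, 32.02 and 34.6 CPM in Aged Sham 1 to 3, against 42.7, 36.8 and 38.3 CPM in Young TBI 1 to 3 and 38.2, 47.8 and 40.1 CPM in Young Sham 1 to 3. The groups did not overlap with age, and the log2 fold change was -0.39 ± 0.09 (adjusted p = 0.0194) in injured and -0.38 ± 0.09 (adjusted p = 0.0259) in sham mice.

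Mmp12 and Adamtsl3 went the other way. Mmp12 (chr9:7344381-7369499) encodes macrophage metalloelastase, a secreted enzyme that degrades elastin. It measured 6.52, 8.56 and 6.999 CPM in Aged TBI 1 to 3, 6.88, 6.19 and 9.005 CPM in Aged Sham 1 to 3, against 3.49, 3.67 and 3.57 CPM in Young TBI 1 to 3 and 3.53, 2.65 and 2.52 CPM in Young Sham 1 to 3. Every aged library exceeded every young one, with log2 fold changes of 1.04 ± 0.19 in injured mice (adjusted p = 0.00535) and 1.35 ± 0.19 in sham mice (adjusted p = 0.00214). The 12 macrophage markers summed to 1697 to 2362 CPM in Aged TBI and 1735 to 2054 CPM in Aged Sham, against 1691 to 1800 CPM in Young TBI and 1589 to 1663 CPM in Young Sham, with none at 0, and their part in the rise of Mmp12 was not tested. Adamtsl3 (chr7:82335694-82614450), a matrix protein without protease activity, measured 119, 97.1 and 128 CPM in Aged TBI 1 to 3, 90.8, 127 and 106 CPM in Aged Sham 1 to 3, against 57.6, 58.6 and 66.6 CPM in Young TBI 1 to 3 and 53.1, 75.3 and 65.5 CPM in Young Sham 1 to 3. Its aged libraries were all above its young ones (0.92 ± 0.15, adjusted p = 0.00327 in injured mice, and 0.73 ± 0.15, adjusted p = 0.0108 in sham mice). The other 4 ADAMTS-like genes were not called, with log2 fold changes between -0.37 ± 0.18 (Adamtsl2, injured mice) and 0.23 ± 0.17 (Adamtsl4, sham mice).

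**Figure D2:**
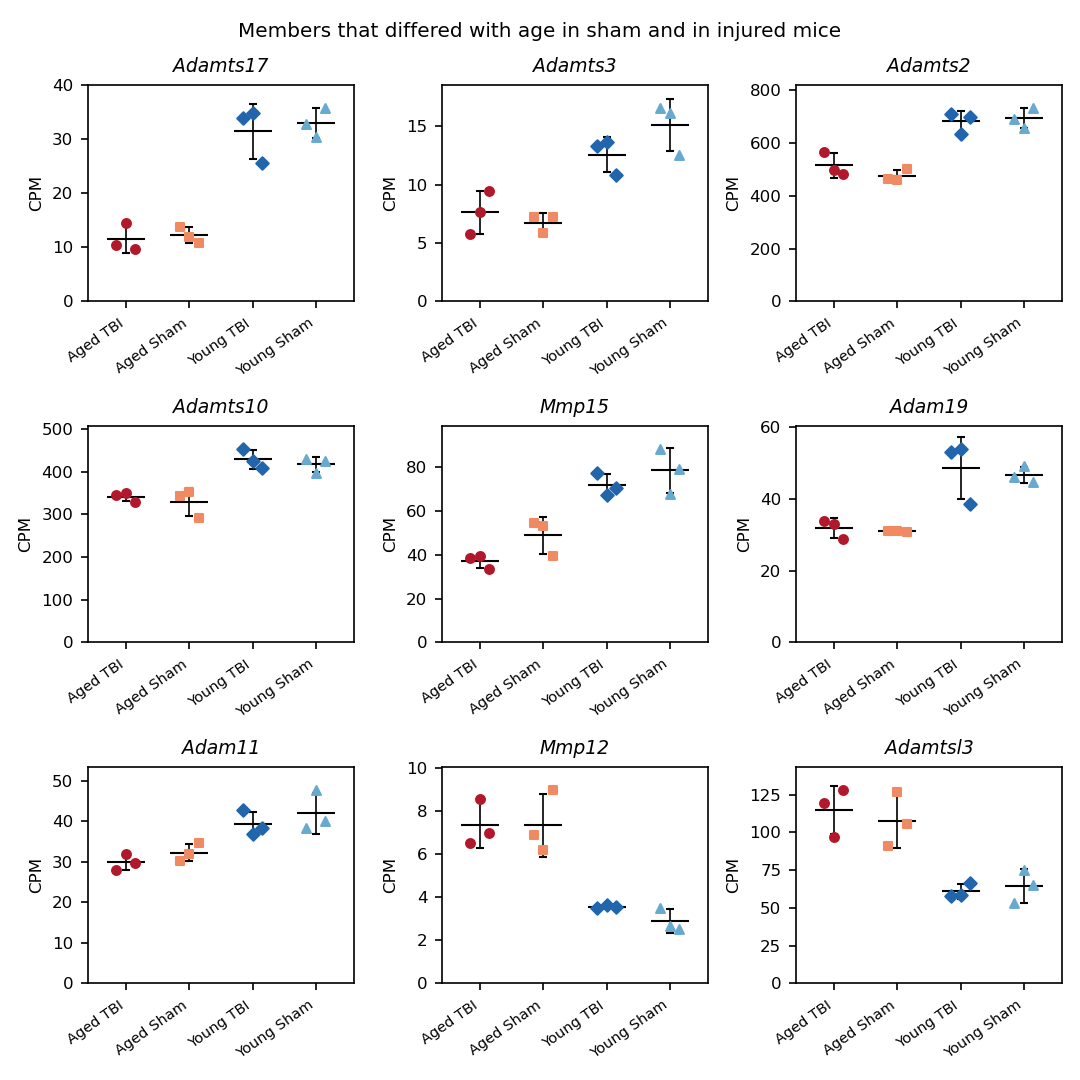
The 9 members called with age in both comparisons, as CPM on axes from 0. Points are libraries, with the groups Aged TBI, Aged Sham, Young TBI and Young Sham from left to right, and bars give the mean and SD (n = 3). The 6 aged and 6 young libraries do not overlap for any of the 9. Adamts17 averages 11.6 ± 2.57 and 12.2 ± 1.46 CPM in Aged TBI and Aged Sham, against 31.4 ± 5.10 and 32.9 ± 2.75 CPM in Young TBI and Young Sham.

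Beside Timp4, 5 other members passed the threshold over all libraries in sham but not in injured mice. Adam12, an active ADAM of mesenchymal cells, measured 49.02, 48.5 and 41.05 CPM in Aged Sham 1 to 3, against 71.3, 65.7 and 74.7 CPM in Young Sham 1 to 3, and 66.5, 49.3 and 59.4 CPM in Aged TBI 1 to 3, against 68.8, 77.6 and 61.5 CPM in Young TBI 1 to 3. The sham groups did not overlap (-0.61 ± 0.12, adjusted p = 0.00864), whereas the injured groups did (-0.25 ± 0.12, adjusted p = 0.179), and without Aged TBI 1 Adam12 was called lower in injured mice too (-0.36, adjusted p = 0.0884). Adamts12, known to cleave the cartilage oligomeric matrix protein Comp, measured 8.99, 7.68 and 7.71 CPM in Aged Sham and 10.7, 13.99 and 15.3 CPM in Young Sham, and 10.97, 11.2 and 7.84 CPM in Aged TBI and 12.5, 14.98 and 12.8 CPM in Young TBI. Its groups were apart in both comparisons, with -0.72 ± 0.17 (adjusted p = 0.0209) in sham and -0.42 ± 0.16 (adjusted p = 0.113) in injured mice, and the injured comparison passed the threshold with only the groups compared in the fit (adjusted p = 0.0986) and without Aged TBI 2 or Young Sham 1 (log2 fold changes from -0.52 to -0.43, adjusted p from 0.0776 to 0.098). Adamts9, a proteoglycanase, measured 67.2, 53.99 and 39.6 CPM in Aged Sham and 82.002, 82.8 and 95.7 CPM in Young Sham, and 85.5, 57.1 and 64.1 CPM in Aged TBI and 82.05, 104 and 78.9 CPM in Young TBI. Aged Sham lay below Young Sham throughout (-0.70 ± 0.19, adjusted p = 0.0379), a call lost without Young Sham 3 (log2 fold change -0.62, adjusted p = 0.142), and the injured groups overlapped (-0.36 ± 0.19, adjusted p = 0.225). In injured mice it was called lower without Aged TBI 1 (log2 fold change -0.56, adjusted p = 0.0956).

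Mmp23, a short membrane-anchored MMP, measured 65.5, 61.8 and 47.2 CPM in Aged Sham and 86.5, 78.5 and 88.2 CPM in Young Sham, and 76.3, 80.8 and 64.8 CPM in Aged TBI and 84.96, 86.6 and 76.8 CPM in Young TBI. It was lower in Aged Sham (-0.53 ± 0.11, adjusted p = 0.0147) with no overlap, and the injured groups overlapped (-0.16 ± 0.11, adjusted p = 0.382). Adamts8, an ADAMTS with proteoglycanase activity, was the only ADAMTS gene called higher in sham mice. It measured 4.14, 4.90 and 8.03 CPM in Aged Sham, against 3.53, 1.97 and 3.03 CPM in Young Sham, with the top value in Aged Sham 3, and 3.84, 5.07 and 3.27 CPM in Aged TBI, against 3.29, 3.11 and 3.45 CPM in Young TBI. The log2 fold change in sham mice was 1.01 ± 0.28 (adjusted p = 0.042), and the call was lost with only the groups compared in the fit (adjusted p = 0.117) and without Aged Sham 3, Young Sham 2 or Young Sham 3 (log2 fold changes from 0.69 to 1.07, adjusted p from 0.115 to 0.143). None of these members was shown to respond to age differently in sham and injured mice, since the interaction had an adjusted p of at least 0.653 for every member.

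The membrane-type protease Mmp14 and its target Mmp2 were called lower with age in injured mice. Mmp14 (MT1-MMP, chr14:54431612-54445364) activates the Mmp2 precursor at the cell surface in a complex with Timp2, and it also cuts fibrillar collagen. Mmp14 measured 287, 311 and 227 CPM in Aged TBI 1 to 3, 262, 234 and 450.1 CPM in Aged Sham 1 to 3, against 514, 467 and 380.2 CPM in Young TBI 1 to 3 and 430.3, 444 and 462 CPM in Young Sham 1 to 3. Every Aged TBI library was below every Young TBI library (-0.72 ± 0.21, adjusted p = 0.0399), and the call was lost without Aged TBI 3 or Young TBI 1 (log2 fold changes from -0.64 to -0.62, adjusted p from 0.128 to 0.134). Mmp2 measured 523, 637 and 456 CPM in Aged TBI 1 to 3, 522, 429 and 888 CPM in Aged Sham 1 to 3, against 906, 866 and 815 CPM in Young TBI 1 to 3 and 841, 785 and 898 CPM in Young Sham 1 to 3. The Aged TBI libraries were again all below the Young TBI ones (-0.68 ± 0.21, adjusted p = 0.0527), and the call was lost without Aged TBI 1, Aged TBI 3, Young TBI 1 or Young TBI 2 (log2 fold changes from -0.69 to -0.59, adjusted p from 0.107 to 0.159).

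In sham mice neither gene was called over all libraries (Mmp14 -0.50 ± 0.21, adjusted p = 0.156, and Mmp2 -0.46 ± 0.21, adjusted p = 0.199). In both, Aged Sham 1 and 2 lay below all Young Sham libraries and Aged Sham 3 lay among or near them. Both were called lower in sham mice too without Aged Sham 3 (Mmp14 -0.85, adjusted p = 0.00517, and Mmp2 -0.82, adjusted p = 0.0041) and with no count filter (adjusted p = 0.0393 and 0.0677). The age differences of sham and injured mice were not shown to differ for either gene (interaction adjusted p = 0.888 and 0.890).

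Adamts4 is an aggrecanase, and it measured 10.6, 9.73 and 4.79 CPM in Aged TBI 1 to 3, 11.2, 7.68 and 19.5 CPM in Aged Sham 1 to 3, against 29.2, 23.9 and 12.8 CPM in Young TBI 1 to 3 and 25.9, 26.8 and 20.5 CPM in Young Sham 1 to 3. Its levels varied within groups, yet Aged TBI lay below Young TBI throughout (-1.39 ± 0.37, adjusted p = 0.0292), a call lost without Young TBI 1 (log2 fold change -1.15, adjusted p = 0.118). In sham mice the groups were also apart (-0.94 ± 0.36, adjusted p = 0.123), and the gene was called there with no count filter (adjusted p = 0.0222) and without Aged TBI 3, Aged Sham 3 or Young TBI 3 (log2 fold changes from -1.38 to -0.94, adjusted p from 0.0348 to 0.098). A pair of GPI-anchored MMPs moved in opposite directions. Mmp17 measured 8.16, 7.94 and 5.55 CPM in Aged TBI, against 11.9, 11.6 and 9.06 CPM in Young TBI, and 8.13, 9.79 and 10.5 CPM in Aged Sham, against 9.44, 9.71 and 12.03 CPM in Young Sham. It was called lower in injured mice (-0.59 ± 0.17, adjusted p = 0.0447), a call lost without Aged TBI 3, Young TBI 1 or Young TBI 2 (log2 fold changes from -0.55 to -0.45, adjusted p from 0.117 to 0.141). Mmp25 (leukolysin), known from neutrophils, measured 7.74, 7.74 and 5.10 CPM in Aged TBI, against 5.13, 3.75 and 2.55 CPM in Young TBI, and 3.75, 7.55 and 5.35 CPM in Aged Sham, against 5.24, 3.67 and 3.87 CPM in Young Sham. It was called higher in injured mice although 1 library of each group overlapped (0.83 ± 0.30, adjusted p = 0.0858), and the call was lost without Aged TBI 1, Aged TBI 2, Young TBI 2, Young TBI 3, Young Sham 2 or Young Sham 3 (log2 fold changes from 0.62 to 0.82, adjusted p from 0.104 to 0.233). The 12 neutrophil markers summed to 632 to 1140 CPM in Aged TBI and 447 to 870 CPM in Aged Sham, against 195 to 591 CPM in Young TBI and 178 to 546 CPM in Young Sham, and their part in the rise of Mmp25 was not tested.

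Adam33, a catalytically active ADAM best known from smooth muscle and fibroblasts, measured 96.6, 41.8 and 48.3 CPM in Aged TBI 1 to 3, 35.3, 46.5 and 38.3 CPM in Aged Sham 1 to 3, against 29.5, 27.5 and 32.4 CPM in Young TBI 1 to 3 and 29.5, 26.003 and 28.3 CPM in Young Sham 1 to 3. Aged TBI 1 was far above the other libraries, and all aged libraries exceeded all young ones. The log2 fold change was 1.07 ± 0.25 in injured mice (adjusted p = 0.018), where the call held when any 1 library was left out. In sham mice it was 0.52 ± 0.25 (adjusted p = 0.223), and without Aged TBI 1, which enters the shared estimate of the spread, the sham comparison was called (0.52, adjusted p = 0.0156), as it was with only the groups compared in the fit (adjusted p = 0.0422). Adamts18 was near the limit of the table, at 2.07, 1.51 and 0.837 CPM in Aged TBI, against 0.484, 0.558 and 0.766 CPM in Young TBI, and 0.782, 1.56 and 0.811 CPM in Aged Sham, against 0.572, 0.543 and 1.01 CPM in Young Sham. It was called higher in injured mice (1.32 ± 0.43, adjusted p = 0.0643), a call lost with DESeq2 (adjusted p = 0.127), with the replicate number as a block (adjusted p = 0.101) and without Aged TBI 1, Aged TBI 2, Young TBI 1 or Young TBI 2 (log2 fold changes from 0.98 to 1.301, adjusted p from 0.119 to 0.218). Adam21, a testis-enriched member chosen for mention after its values were seen, was the other called gene, at 0.670, 0.685 and 0.913 CPM in Aged TBI and 0.291, 0.0797 and 0.255 CPM in Young TBI (1.88 ± 0.56, adjusted p = 0.045), which is under 1 CPM in every library.

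Aged Sham 3 set the sham values of several secreted proteases. Mmp13 (chr9:7272514-7283331) measured 217, 226 and 112 CPM in Aged TBI 1 to 3, 205, 95.1 and 1451 CPM in Aged Sham 1 to 3, against 186, 192 and 266 CPM in Young TBI 1 to 3 and 198, 233 and 196 CPM in Young Sham 1 to 3. Aged Sham 3 held 9.67 times the mean of Aged Sham 1 and 2, and the other 11 libraries ranged from 95.1 to 266 CPM. Mmp9 (chr2:164940780-164955850) measured 142, 118 and 60.9 CPM in Aged TBI 1 to 3, 104, 88.1 and 842 CPM in Aged Sham 1 to 3, against 159.7, 127 and 171 CPM in Young TBI 1 to 3 and 129.6, 137 and 131 CPM in Young Sham 1 to 3. The ratio in Aged Sham 3 was 8.79, and none of the other 11 libraries exceeded 171 CPM. Mmp3 (stromelysin 1), a neighbour of Mmp13 on chromosome 9, measured 9.38, 6.92 and 5.02 CPM in Aged TBI 1 to 3, 5.71, 5.44 and 45.7 CPM in Aged Sham 1 to 3, against 4.46, 4.54 and 5.87 CPM in Young TBI 1 to 3 and 7.25, 8.96 and 5.47 CPM in Young Sham 1 to 3. Its ratio was 8.19, whereas Mmp12, which shares the cluster and the motif shown above, was at 9.005 CPM there, against 6.88 and 6.19 CPM in Aged Sham 1 and 2. Adamts5, an aggrecanase, reached 99.9 CPM in Aged Sham 3, against 38.5 and 29.7 CPM in Aged Sham 1 and 2.

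Osteoclast genes and some genes of the osteoblast and bone list were high in the same library. Acp5, the tartrate-resistant phosphatase of osteoclasts, was at 492 CPM in Aged Sham 3 and at 32.3 to 83.8 CPM in the other 11 libraries. Ibsp, a sialoprotein of mineralizing bone, was at 973 CPM against 44.2 to 86.3 CPM, and Spp1 (osteopontin) at 2556 CPM against 199.5 to 378 CPM. The osteoblast genes Sp7 and Bglap went the other way, with 56.2 and 21.3 CPM in Aged Sham 3 and at least 62.6 and 39.6 CPM elsewhere. So did Bglap2 and Phex of the same list, with 16.9 and 1.62 CPM there and at least 25.0 and 1.77 CPM elsewhere. Neutrophil markers, another known source of Mmp9, summed to 698 CPM there, within the 178 to 1140 CPM of the other libraries. The part of bone cells in the protease values of this library was not tested.

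**Figure D3:**
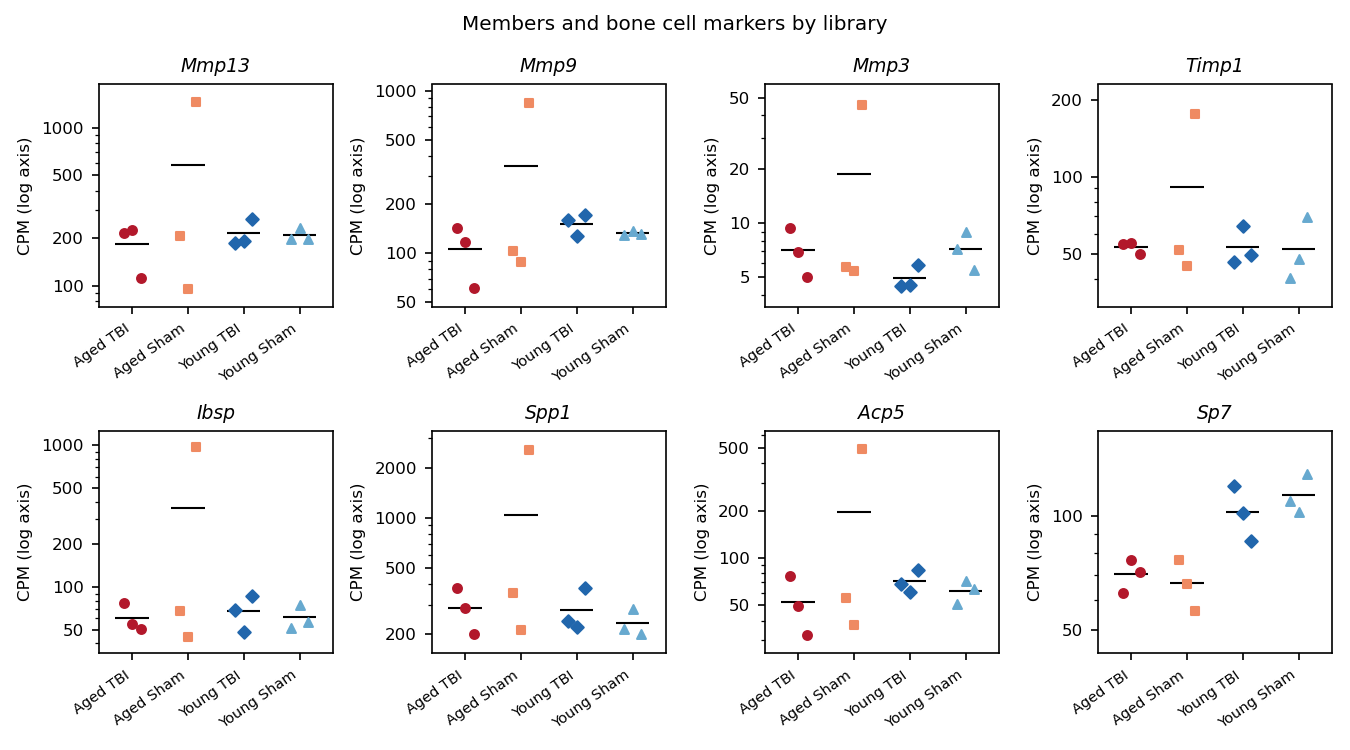
CPM on log axes for 4 members (top row) and 4 bone cell genes (bottom row), with 3 libraries in each group and horizontal lines at the group mean. Aged Sham 3 stands above all 11 others for Mmp13 (1451 CPM), Mmp9 (842 CPM), Mmp3, Timp1, Ibsp, Spp1 and Acp5, and is the lowest for Sp7 (56.2 CPM).

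Over all libraries Mmp13, Mmp9 and Mmp3 had positive log2 fold changes between Aged Sham and Young Sham with wide errors, and none was called (1.48 ± 0.72, 1.37 ± 0.68 and 1.37 ± 0.66, adjusted p = 0.225, 0.229 and 0.221). Without Aged Sham 3 all 3 estimates became negative and stayed uncalled (-0.48, -0.47 and -0.38, adjusted p = 0.415, 0.312 and 0.436). With no count filter and all libraries, all 3 were called higher in sham mice. The values there were 1.47 for Mmp13 (adjusted p = 0.0721), 1.37 for Mmp9 (adjusted p = 0.0751) and 1.37 for Mmp3 (adjusted p = 0.0814). Mmp9 was also called higher without Aged Sham 1 (1.80, adjusted p = 0.0839). In injured mice the estimates of Mmp13, Mmp9 and Mmp3 were -0.21 ± 0.71, -0.51 ± 0.67 and 0.54 ± 0.72, also uncalled. Those groups do not include Aged Sham 3, but it enters the shared estimate of the spread behind these errors. Without it the injured values were -0.21 ± 0.29, -0.50 ± 0.23 and 0.54 ± 0.24, still uncalled (adjusted p = 0.660, 0.156 and 0.153).

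The count of members lower in sham mice rose to 19 without Aged Sham 3, and the count of those higher fell to 2, with 13 of the 15 calls kept, while over all genes 7.31% were then lower and 5.78% higher. Beside Mmp14 and Mmp2, the members then called lower included the aggrecanases Adamts4 (-1.38, adjusted p = 0.0348) and Adamts5 (-0.62, adjusted p = 0.0411, against an uncalled 0.09 over all libraries), the proteoglycanases Adamts15 (-0.52, adjusted p = 0.0214) and Adamts1 (-0.68, adjusted p = 0.0697), Timp2 and Adam17. In injured mice that fit also called Adamts15 (-0.56, adjusted p = 0.00519) and Adamts1 (-0.51, adjusted p = 0.0836) lower, both uncalled over all libraries (adjusted p = 0.172 and 0.165). Both were called lower there with no count filter (adjusted p = 0.0672 and 0.0613) and with only the groups compared (adjusted p = 0.0127 and 0.0488). The median log2 fold change of the members in sham mice moved to -0.15, beside -0.16 in injured mice. Across the 55 members, which are not independent replicates, the age differences of sham and injured mice correlated with Pearson's r = 0.695 over all libraries and 0.876 without Aged Sham 3, and they had the same sign for 42 and 48 members (76.4% and 87.3%). Aged Sham 3 was singled out by the values of these same members. The closer match of the members without it, in median, r and sign, follows in part from that choice and is no test. Over all 18238 genes tested r was 0.627 and 70.4% had the same sign. Without Aged Sham 3 the filter kept 18612 genes, with r = 0.429 and 69.9% of the same sign. These 2 all-gene sets differ, whereas the 55 members are the same in both fits.

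**Figure D4:**
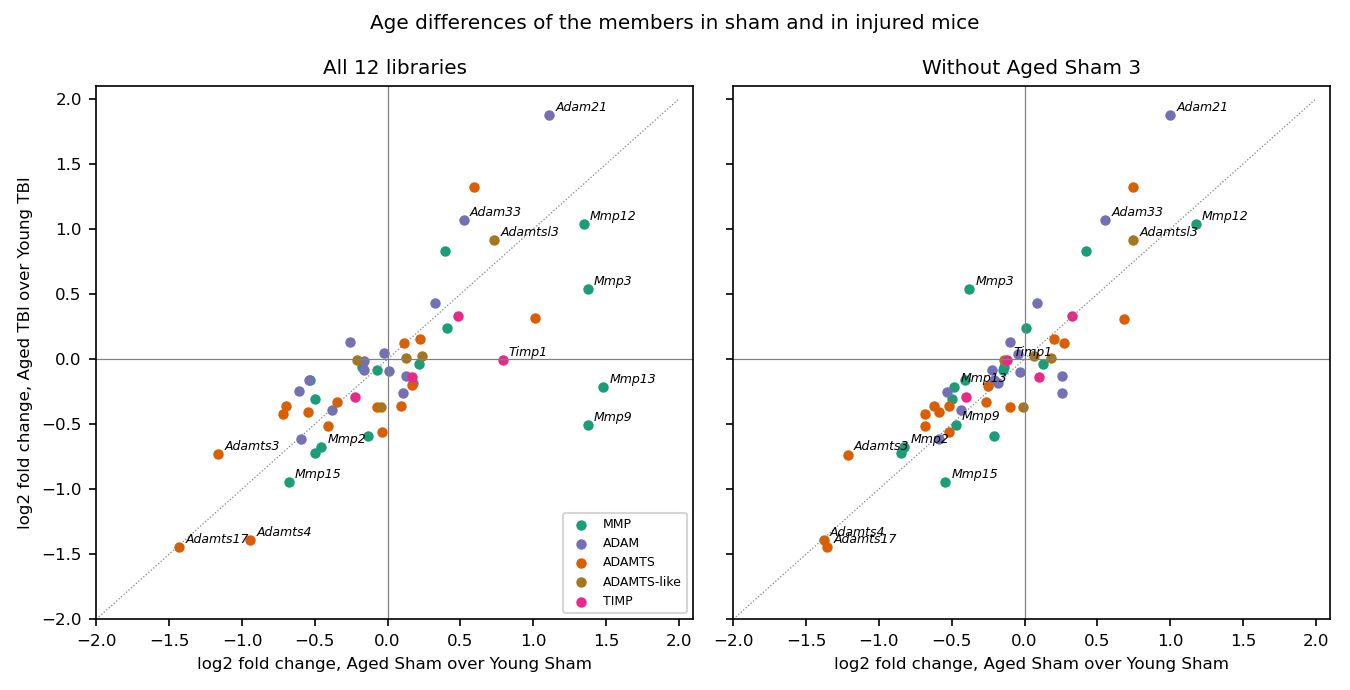
Each point is 1 of the 55 tested members, with the log2 fold change of Aged Sham over Young Sham on the horizontal axis and of Aged TBI over Young TBI on the vertical axis. The left panel uses all 12 libraries and the right panel leaves out Aged Sham 3, and the dotted line marks equal values. Mmp13, Mmp9, Mmp3 and Timp1 lie far to the right on the left panel only, and Adamts17 and Adamts3 stay at the lower left on both.

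The main sheddases, Adam10 and Adam17, were not called over all libraries. Adam10, the constitutive sheddase of Notch and of the amyloid precursor protein, measured 132, 147 and 153 CPM in Aged TBI 1 to 3, 134, 140.3 and 143 CPM in Aged Sham 1 to 3, against 142, 139.5 and 137 CPM in Young TBI 1 to 3 and 127, 155 and 142 CPM in Young Sham 1 to 3. All 4 groups overlapped, and its 95% interval for the log2 fold change with age was -0.12 to 0.20 in injured and -0.19 to 0.14 in sham mice. Adam17, the TNF-alpha converting enzyme, measured 72.2, 74.99 and 67.7 CPM in Aged TBI 1 to 3, 66.2, 67.2 and 75.7 CPM in Aged Sham 1 to 3, against 76.4, 74.9 and 76.4 CPM in Young TBI 1 to 3 and 76.9, 75.9 and 80.5 CPM in Young Sham 1 to 3. The sham groups were narrowly apart but not called (-0.16 ± 0.06, adjusted p = 0.129), and without Aged Sham 3 Adam17 was called lower (-0.22, adjusted p = 0.0348). In injured mice its interval was -0.22 to 0.05. Adam15 and Adam9 were not called with age over all libraries either (adjusted p of at least 0.411). Adam9 was another gene of Aged Sham 3, at 220.5 CPM there and 118 to 148 CPM elsewhere. Without Aged Sham 3 Adam9 was called lower in injured mice (-0.18, adjusted p = 0.069) and not in sham mice (-0.18, adjusted p = 0.142). The injured comparison of Adam9 also passed the threshold with only the groups compared in the fit (-0.19, adjusted p = 0.0674).

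Of the 4 inhibitors edgeR called only Timp4 over all 12 libraries with TMM factors, the count filter and no replicate block. Other edgeR fits of all 12 libraries also called Timp2 lower in injured mice or Timp3 higher in sham mice. Timp2 (chr11:118301069-118355740), which inhibits MMPs and also assists Mmp14 in activating Mmp2, measured 927, 962 and 972 CPM in Aged TBI 1 to 3, 845, 860.3 and 1189 CPM in Aged Sham 1 to 3, against 1200.3, 1149 and 1158 CPM in Young TBI 1 to 3 and 1117, 1031 and 1233 CPM in Young Sham 1 to 3. Every Aged TBI library was below every Young TBI library, and the difference missed the threshold (-0.29 ± 0.11, adjusted p = 0.106), passing it without Aged Sham 1, Aged Sham 2 or Aged Sham 3 (log2 fold changes from -0.31 to -0.29, adjusted p from 0.00795 to 0.0903). Over all libraries it was also called lower with DESeq2 (-0.31, adjusted p = 0.0513), RLE factors (adjusted p = 0.0945), no count filter (adjusted p = 0.0514), the replicate number as a block (adjusted p = 0.0771) and only the groups compared in the fit (adjusted p = 0.00804). In sham mice Aged Sham 3 lay within the Young Sham range (-0.22 ± 0.11, adjusted p = 0.237), and without it Timp2 was called lower (-0.40, adjusted p = 0.00643).

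Timp1 (chrX:20870166-20874735), the inducible inhibitor that binds the Mmp9 precursor, measured 54.4, 55.2 and 50.1 CPM in Aged TBI 1 to 3, 51.8, 44.9 and 176 CPM in Aged Sham 1 to 3, against 46.5, 64.1 and 49.6 CPM in Young TBI 1 to 3 and 40.3, 47.5 and 69.5 CPM in Young Sham 1 to 3. Aged Sham 3 was 3.65 times the mean of Aged Sham 1 and 2, and the remaining 11 libraries overlapped between groups. The sham log2 fold change was 0.79 ± 0.42 (adjusted p = 0.266), and -0.12 without Aged Sham 3 (adjusted p = 0.781), and in injured mice it was -0.01 ± 0.42 (adjusted p = 0.994).

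Timp3 (chr10:86300372-86349506), the matrix-bound inhibitor that also blocks Adam17 and the aggrecanases, measured 383, 401 and 496 CPM in Aged TBI 1 to 3, 451, 465 and 524 CPM in Aged Sham 1 to 3, against 449, 448 and 511 CPM in Young TBI 1 to 3 and 419.9, 404 and 458 CPM in Young Sham 1 to 3. The groups overlapped in both age comparisons (-0.14 ± 0.10, adjusted p = 0.394 in injured mice, and 0.17 ± 0.10, adjusted p = 0.323 in sham mice), and without Aged TBI 3 Timp3 was called lower in injured mice (-0.28, adjusted p = 0.0763). Timp4 (chr6:115241892-115252205) was the least abundant, and it measured 12.2, 11.4 and 14.5 CPM in Aged TBI 1 to 3, 11.6, 14.8 and 18.01 CPM in Aged Sham 1 to 3, against 10.8, 9.004 and 10.7 CPM in Young TBI 1 to 3 and 11.4, 10.8 and 9.51 CPM in Young Sham 1 to 3. It was called higher in Aged Sham than in Young Sham (0.49 ± 0.16, adjusted p = 0.0743), and it fell out of the calls with only the groups compared in the fit (adjusted p = 0.149) and without Aged Sham 2, Aged Sham 3, Young Sham 1, Young Sham 2 or Young Sham 3 (log2 fold changes from 0.33 to 0.54, adjusted p from 0.115 to 0.243). In injured mice its groups were apart in the same direction and it was not called (0.33 ± 0.16, adjusted p = 0.199), except with library totals only (0.41, adjusted p = 0.0965).

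The gene spans of Timp1, Timp3 and Timp4 overlap those of the synapsin genes Syn1, Syn3 and Syn2, which lie on the other strand. Exons were not compared, and the strand setting of the counting is not given in the sources used here, so whether any reads are shared is not known. Syn1, Syn3 and Syn2 were at most 26.5, 3.003 and 25.6 CPM in any library. Syn2 thus had counts of the order of those of Timp4, and an effect of the overlap on the values of Timp4 was not tested. Of the other members described, Adam17 overlaps Iah1 in the same way.

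**Figure D5:**
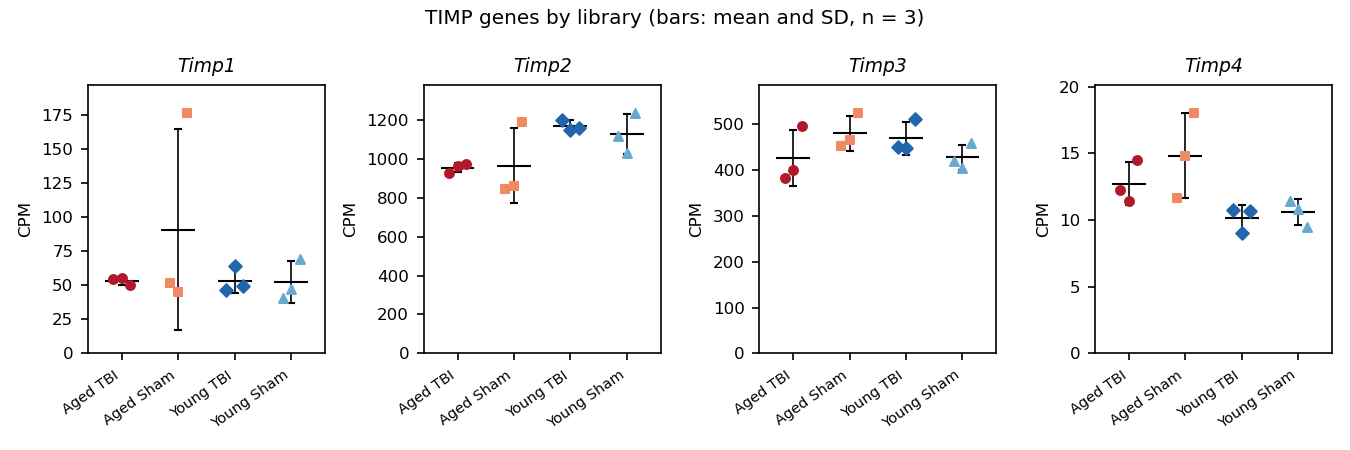
CPM of the 4 inhibitors on axes from 0, with 3 libraries in each of Aged TBI, Aged Sham, Young TBI and Young Sham and bars for the mean and SD. Timp2 averages 954 ± 23.7 and 965 ± 194 CPM in Aged TBI and Aged Sham, against 1169 ± 27.4 and 1127 ± 101 CPM in Young TBI and Young Sham, and 1 Aged Sham library stands apart for Timp1.

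After injury edgeR called no member in either age group with the count filter. Between Young TBI and Young Sham edgeR called 0 of 55 members (0.00548% of all genes, 1 gene), with 1 member at an unadjusted p under 0.05 (4.15% of all genes), and DESeq2 called 0. The 1 member was Adamts1, a proteoglycanase induced by inflammation, which measured 121, 149.97 and 97.5 CPM in Young TBI and 156, 225 and 169 CPM in Young Sham. Its young groups did not overlap (-0.58 ± 0.23, adjusted p = 1). In aged mice it measured 94.4, 91.02 and 73.5 CPM in Aged TBI and 136, 93.3 and 185 CPM in Aged Sham, where Aged Sham 2 overlapped with Aged TBI (-0.68 ± 0.23, adjusted p = 0.204). Groups of young mice did not overlap for 4 members higher after injury (5.7% of all genes) and for 1 lower (5.82% of all genes). For the sheddase Adam10 the 95% interval of the log2 fold change after injury was -0.18 to 0.14 in young and -0.11 to 0.21 in aged mice, and for Mmp14 -0.42 to 0.48 and -0.65 to 0.26. The aged interval of Mmp14 includes Aged Sham 3, where the gene was 1.82 times the mean of Aged Sham 1 and 2.

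Between Aged TBI and Aged Sham edgeR called 0 members as well (1.65% of all genes, 0.389% higher and 1.26% lower), with 12 members at an unadjusted p under 0.05 (14.4% of all genes), and DESeq2 called 1. The all-gene share was itself unstable, at 0 or 1 gene when Aged TBI 1, Aged TBI 3, Aged Sham 2, Young TBI 1, Young TBI 3 or Young Sham 3 was left out, 0.307% with the replicate number as a block, 0.391% with only the groups compared and 3.56% with DESeq2. With no count filter edgeR called 7 members (1.96% of genes), namely Adam23 (0.53, adjusted p = 0.00857), Adam12 (0.34, adjusted p = 0.0997), Adam33 (0.64, adjusted p = 0.066) and Mmp23 (0.35, adjusted p = 0.0805) higher and Adamts1 (-0.67, adjusted p = 0.0307), Mmp9 (-1.67, adjusted p = 0.064) and Mmp15 (-0.39, adjusted p = 0.0672) lower. The gene DESeq2 called was Adam23, a receptor of the LGI proteins without protease activity. It measured 69.6, 62.8 and 62.3 CPM in Aged TBI, against 47.5, 53.1 and 34.8 CPM in Aged Sham, and 61.7, 63.3 and 52.7 CPM in Young TBI, against 52.2, 50.1 and 59.9 CPM in Young Sham. The aged groups did not overlap (0.52 ± 0.13, adjusted p = 0.105 with edgeR and 0.0173 with DESeq2). Adam12 and Adam5 also had no overlap, both higher in Aged TBI, with adjusted p = 0.208 and 0.361. These 3 were all the members whose aged groups were apart (8.5% of all genes were so and higher, 8.76% lower, 17.3% in all).

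The largest estimates after injury in aged mice rested on Aged Sham 3. They were -1.68 ± 0.68 for Mmp9 (adjusted p = 0.285) and -1.66 ± 0.72 for Mmp13 (adjusted p = 0.321), and without that library they were 0.17 and 0.31 (adjusted p = 0.852 and 0.776). Leaving it out also left Mmp15 called lower in Aged TBI (-0.53, adjusted p = 0.0819), against -0.39 ± 0.13 (adjusted p = 0.191) over all libraries. The interaction called 0 members with edgeR (0% of all genes), 3 were at an unadjusted p under 0.05 (7.60% of all genes), namely Mmp23, Adam12 and Timp3, and DESeq2 called 0.

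Other genes that act on these proteases were taken as a list of 40, of which 35 were tested. In sham mice 3 were called higher and 6 lower (7.89% and 7.71% of all genes), and in injured mice 2 higher and 10 lower (9.92% and 10.3% of all genes), with median log2 fold changes of 0.04 and -0.09, beside 0.01 and 0.02 over all genes. Reck, a membrane-anchored MMP inhibitor, was lower in Aged Sham (-0.23 ± 0.08, adjusted p = 0.0891) and not called in injured mice (-0.10 ± 0.08, adjusted p = 0.455), and the sham call held in 3 of the 12 fits that left out 1 library (highest adjusted p = 0.283, without Young Sham 3). Among the convertases that cut the propeptides, Pcsk6 was lower in both comparisons (-0.58 ± 0.11, adjusted p = 0.00754 in injured mice, and -0.44 ± 0.11, adjusted p = 0.0324 in sham mice), the sham call being lost without Young Sham 3 (-0.39, adjusted p = 0.131). Furin was lower in injured mice (-0.49 ± 0.11, adjusted p = 0.0164), and in sham mice without Aged Sham 3 (-0.36, adjusted p = 0.0302). Papln, an ADAMTS-like matrix protein, was lower in both (-0.71 ± 0.17, adjusted p = 0.017, and -0.83 ± 0.17, adjusted p = 0.011). Lrp1, the endocytic receptor that clears many of these enzymes, was lower in injured mice (-0.53 ± 0.14, adjusted p = 0.0265), and in sham mice without Aged Sham 3 (-0.40, adjusted p = 0.0103). Spock1, a proteoglycan, was higher in both (0.70 ± 0.15, adjusted p = 0.0105, and 0.69 ± 0.14, adjusted p = 0.0127).

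Of this list only A2m was called after injury in aged mice, and not in every fit. A2m, the plasma protease trap alpha-2-macroglobulin, measured 6.40, 9.66 and 6.16 CPM in Aged TBI 1 to 3 and 18.5, 24.1 and 36.4 CPM in Aged Sham 1 to 3, against 24.8, 9.48 and 18.5 CPM in Young TBI 1 to 3 and 27.5, 15.2 and 26.9 CPM in Young Sham 1 to 3. All Aged TBI libraries were below all Aged Sham libraries (-1.83 ± 0.36, adjusted p = 0.0802). The call was lost without Aged TBI 1, Aged TBI 3, Aged Sham 2, Young TBI 1, Young TBI 3 or Young Sham 3 (adjusted p from 0.111 to 0.215) and with the replicate number as a block (adjusted p = 0.104). Choroid plexus markers moved with it, summing to 920.3 to 2232 CPM in Aged TBI and 3328 to 4426 CPM in Aged Sham, against 2208 to 4348 CPM in Young TBI and 2748 to 4827 CPM in Young Sham, and their part in the result was not tested.

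Known substrates of the 3 protease families were taken as a list of 33, of which 32 were tested. In sham mice 3 were called higher and 13 lower (7.89% and 7.71% of all genes), and in injured mice 1 higher and 16 lower (9.92% and 10.3% of all genes). The median log2 fold changes were -0.25 and -0.22, beside 0.01 and 0.02 over all genes. Of the aggrecanase substrates Acan and Vcan are described here, and Bcan and Ncan of the same list are not. Acan (aggrecan) was lower in injured (-0.91 ± 0.16, adjusted p = 0.0044) and in sham mice (-0.96 ± 0.16, adjusted p = 0.00441). Vcan (versican) was also lower in injured (-1.45 ± 0.24, adjusted p = 0.00341) and in sham mice (-0.82 ± 0.24, adjusted p = 0.0484). Fbn1 (fibrillin 1) was lower in both as well (-0.40 ± 0.11, adjusted p = 0.0361, and -0.32 ± 0.11, adjusted p = 0.0944). The sham call of Vcan was lost without Aged Sham 1, Aged Sham 3 or Young Sham 3 (adjusted p from 0.103 to 0.199) and with only the groups compared in the fit (adjusted p = 0.125). That of Fbn1 held in 4 of the 12 fits that left out 1 library (highest adjusted p = 0.267, without Aged Sham 2), and its call in injured mice was lost without Aged TBI 3 or Young TBI 2 (adjusted p = 0.113 and 0.110). Comp, the substrate of Adamts12, was lower in sham mice (-0.64 ± 0.15, adjusted p = 0.0207) and missed the threshold in injured mice (-0.39 ± 0.15, adjusted p = 0.107), where DESeq2 called it lower (adjusted p = 0.0468). These values are of messenger RNA and give no measure of protein or of protease activity.

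The remaining tested members were not called in any comparison. They are the MMP genes Mmp11, Mmp16, Mmp19, Mmp24 and Mmp28, the ADAM genes Adam1a, Adam5, Adam8, Adam22 and Adam32 and the ADAMTS genes Adamts6, Adamts7 and Adamts20, beside those described above. Adam8, a leukocyte ADAM, measured 13.8 ± 3.54 CPM in Aged TBI and 14.3 ± 3.93 CPM in Aged Sham, against 10.2 ± 1.22 CPM in Young TBI and 11.4 ± 2.22 CPM in Young Sham. Its groups overlapped (adjusted p = 0.23 in injured and 0.396 in sham mice).

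Of the 29 members set aside by the count filter, 9 had no count in any library, namely Adam20, Adam24, Adam25, Adam26a, Adam26b, Adam29, Adam34, Adam6a and Mmp1b. Most of these are ADAM genes known from testis. A count of 0 allows up to 3 counts per library. The highest count among the other 20 was 22, for Adam28 in Young Sham 1, and Adamts13, the protease of von Willebrand factor, had at most 12 counts per library. Of the chromosome 9 cluster, Mmp10 and Mmp27 reached 10 and 14 counts and Mmp7 14 of its 15 counts in Aged Sham 3.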

How the data were processed

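Bulk RNA-seq of dorsal meninges was analysed in 12 libraries, 3 per group. The authors aligned reads to mm10 with HISAT2, removed uninformative and PCR-duplicate reads, sorted with SAMtools and counted with HTSeq, and they deposited 1 table of raw counts per gene. Versions, annotation and strand setting are not given in the sources used here. Counts were tested with edgeR 4.0.16 in R 4.3.3 (quasi-likelihood F test, two-sided, TMM factors of 0.969 to 1.036, filterByExpr by group), in 1 fit of all libraries, with Benjamini-Hochberg adjustment over the 18238 genes tested. Errors after ± are standard errors for log2 fold changes and SD for levels. Exon lengths, gene spans and overlaps came from GENCODE M21, matched by name for 96.2% of rows and 83 of the 84 members. The test was checked on simulated data.

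Members and gene lists were chosen with earlier results of these data known. Values of every library are given for members called in a comparison with a group mean of at least 1 CPM, the TIMPs, Mmp2, Mmp9, Mmp14, Adam10 and Adam17, and others are named with their values where a result turns on them. A count of 0 allows 3 counts, for counting error only. Alternatives were DESeq2 1.42.0, RLE factors, library totals only, no count filter, the replicate number as a block, only the groups compared, and each library left out. 1 further MMP gene is not reported here.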

Additional observations from a re-analysis of the deposited data

How the results depend on the processing

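Among sham mice the members called higher with age numbered 4 of the 55 tested, and 8 of 75 with no count filter. Over all genes 1439 of 18238 were higher with the filter and 1514 of 35972 without it. The members added were Mmp9, Mmp3, Mmp13 and Mmp27, whose highest value or count was in Aged Sham 3. Leaving out 1 library at a time gave 2 to 7 higher and 10 to 19 lower (11 over all libraries) in sham mice, and 3 to 6 higher (6) and 7 to 16 lower (12) in injured mice, while the share of all genes called moved from 6.57% to 19.6% in sham and from 11.3% to 24.2% in injured mice. The extremes came without Aged Sham 1 (7 higher, sham), Aged Sham 3 (2 higher and 19 lower, sham, and 16 lower, injured), Young Sham 2 or 3 (2 higher, sham), Young Sham 3 (10 lower, sham), Young TBI 2 (3 higher, injured) and Young TBI 1 (7 lower, injured). Between Aged TBI and Aged Sham the count of 0 higher became 1 with DESeq2 and 4 with no count filter, and that of 0 lower became 3 with no count filter and 0 to 1 with a library left out. The fit with the replicate number as a block called 5 members higher and 11 lower in sham mice and 5 higher and 12 lower in injured mice. Over all 18238 genes it called 1237 higher and 1239 lower in sham mice, and 1593 higher and 1717 lower in injured mice. The block fit changed the calls of Adamts14 and Adamts18 given above, of Timp2 in injured mice (-0.30, adjusted p = 0.0771) and of Timp3 in sham mice (0.17, adjusted p = 0.0995). Same-numbered libraries correlated at -0.183 to 0.111 over 18 pairs, and 0 libraries correlated best with their own number in all groups, so the numbers do not pair the libraries. Without Aged Sham 3 the sham estimates of Mmp3, Mmp9, Mmp13 and Timp1 changed sign uncalled, and that of Adamts5 changed sign and was called. Of the results of the members named by the rule for named genes, 2503 kept their side of the threshold, 36 passed it and 41 fell short. Members near 1 CPM, such as Adam21 and Adamts18, rest on few counts per library.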
